A study of Mus musculus with 9 samples.

Results

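The mRNAs of the constitutive proteasome were followed in MyC-CaP cells, a mouse prostate cancer line, before and during treatment with recombinant mouse ASPN (asporin), a secreted protein of the tumor stroma. Members were the genes named Psma, Psmb, Psmc, Psmd, Psme, Psmf or Psmg with a number, without the immunoproteasome subunits Psmb8, Psmb9 and Psmb10, and 47 of the 15384 genes in the table met this rule. Of these, 31 encode the standard subunits of the 20S core (14 genes) and of the 19S regulatory particle (17 genes). The other 16 are 7 assembly chaperones, 5 genes of activators, 1 inhibitor, 2 tissue-restricted core subunits and Psmc3ip, which the name pattern takes in although its product is a partner of meiotic recombinases and no subunit. All cells had been starved for 6 to 12 hours in medium free of serum and calcium, and RNA was sequenced at time 0, at 12 hours and at 24 hours of 100 ng/mL ASPN, with 3 libraries each. The sample labels name ASPN as the treatment at time 0 as well. No library of 12 or 24 hours without ASPN was analysed here, so the effect of ASPN and that of the hours in culture cannot be told apart. The labels call the libraries of a time biological replicates without naming separate cultures, and p-values measure the spread between these libraries. In bulk RNA, fewer cells of a kind and less RNA per cell cannot be told apart either.

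The proteasome is the protease that breaks down proteins tagged with ubiquitin. Its 20S core is a stack of rings of alpha and beta subunits, with the active sites on Psmb5, Psmb6 and Psmb7, and the 19S particle on its ends holds a base with a ring of ATPases that unfold substrates and a lid that removes the ubiquitin chain. Synthesis of the subunits is known to be raised together by the transcription factor NRF1 (Nfe2l1) when the proteasome is impaired, and in immune activation Psmb8, Psmb9 and Psmb10 take the places of the 3 active subunits.

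The libraries held 41881191 to 52993821 counts each. A floor of 3 counts corresponds to 0.0566 to 0.0716 CPM (counts scaled to the library total), and all 31 core and 19S genes lay far above it, with means of 50.9 to 352 CPM at time 0. CPM values below are scaled with TMM factors, which were 1.04 to 1.07 at time 0 and 12 hours and 0.898 to 0.911 at 24 hours. The 10 most abundant genes took 7.51% to 8.02% of counts in the libraries of the first 2 times and 9.81% to 10.2% at 24 hours. Among the prostate epithelial markers reported here, Krt8, Hoxb13 and Foxa1 exceeded 1 CPM in all libraries, whereas Epcam, Cdh1 and Krt18 had means of 0 to 0.414 CPM. Means at 0, 12 and 24 hours were 25.5, 26.4 and 38.1 CPM for Krt8, 71.8, 69.5 and 96.6 CPM for Hoxb13 and 233, 209 and 90.8 CPM for Foxa1. Of 7 fibroblast markers, 4 were in the table and 1 exceeded 1 CPM in all libraries, with summed levels of 12.9 to 14.1, 12.2 to 12.5 and 9.12 to 10.3 CPM. Of 6 leukocyte markers, 3 were in the table and 0 exceeded 1 CPM in all libraries, with summed levels of 0.270 to 0.793, 0.284 to 0.645 and 0.588 to 0.761 CPM. The part of these marker changes in the results below was not tested.

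At time 0, the 14 core genes spanned a 5.55-fold range per length. Levels per length are CPM per kilobase of each gene's principal transcript. Psma2, an alpha subunit, was lowest with 37.8 ± 0.69 (SD, n = 3), and Psmb4, a beta subunit, was highest with 210 ± 2.0 (SD, n = 3). The active subunits Psmb7, Psmb5 and Psmb6 followed Psma2 and Psma3 at the lower end of the order. In the 19S particle the range was 6.29-fold, from Psmd1, a scaffold of the base, with 32.1 ± 1.9 to Psmd8, a subunit of the lid, with 202 ± 6.8 (SD, n = 3). With the length of all annotated exons in place of the principal transcript, Psmb7 was the lowest core gene with 18.6. Psmb6, Psma3 and Psma2 came next, and Psmb5, with 61.0, lay above the core median of 50.1. Psmb4, Psmd1 and Psmd8 held their places, but the order of the other genes, also at the lower end, depends on the length used. Psma8, a core subunit of germ cells, had counts of 0 to 2 per library and Psmb11, the thymus subunit, counts of 0 to 3, both at or below the floor, and neither could be tested.

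The upstream DNA of 5 members is shown as examples of 2 short sequences that several members share. The sequences are those of RefSeq on GRCm38.p6, 5′ to 3′ on the gene's strand, ending at the RefSeq start or, where the annotated gene begins before it, at that gene's edge, and none of them overlaps an annotated exon. In the first 3 the capitals mark the core of the antioxidant response element, which NRF1 and NRF2 bind (TGACNNNGC on either strand), and in the other 2 a GC box (GGGCGG on either strand). Psmc6 and Psmb6 hold GC boxes too, which are not marked. Psmc6 (chr14:45329574-45329787, plus strand) rose at 24 hours, whereas with TMM factors Psmb5 (chr14:54618023-54618245, minus strand) and Psmb6 (chr11:70525107-70525356, plus strand) did not pass the test. Psmd8 (chr7:29180702-29180923, minus strand) and Psme2 (chr14:55591114-55591351, minus strand) were among the members that rose most.
Psmc6: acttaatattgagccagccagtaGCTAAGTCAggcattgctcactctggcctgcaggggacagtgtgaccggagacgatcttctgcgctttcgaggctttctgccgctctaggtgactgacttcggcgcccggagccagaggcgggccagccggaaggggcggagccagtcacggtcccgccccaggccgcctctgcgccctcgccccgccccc
Psmb5: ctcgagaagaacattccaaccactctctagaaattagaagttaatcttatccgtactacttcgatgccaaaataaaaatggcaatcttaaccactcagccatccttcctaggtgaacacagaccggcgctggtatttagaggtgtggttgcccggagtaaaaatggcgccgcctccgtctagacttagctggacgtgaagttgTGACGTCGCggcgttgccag
Psmb6: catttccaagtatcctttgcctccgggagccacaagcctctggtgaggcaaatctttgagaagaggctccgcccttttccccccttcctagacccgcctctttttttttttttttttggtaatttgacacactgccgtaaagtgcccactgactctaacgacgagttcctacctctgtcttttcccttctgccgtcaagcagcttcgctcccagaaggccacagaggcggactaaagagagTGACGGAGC
Psmd8: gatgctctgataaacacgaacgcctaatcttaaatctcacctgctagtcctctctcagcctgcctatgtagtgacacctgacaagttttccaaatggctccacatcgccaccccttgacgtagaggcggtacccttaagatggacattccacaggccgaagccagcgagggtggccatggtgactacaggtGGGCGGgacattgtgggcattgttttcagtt
Psme2: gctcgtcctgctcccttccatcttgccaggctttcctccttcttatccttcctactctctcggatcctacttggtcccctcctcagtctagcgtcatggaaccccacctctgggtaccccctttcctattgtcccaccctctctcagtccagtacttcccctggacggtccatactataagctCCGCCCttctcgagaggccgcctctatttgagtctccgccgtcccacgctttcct
Within 250 bases upstream of a RefSeq start, the antioxidant core was found in 5 of 42 promoters of the 39 members with an entry (11.9%; Psmb5, Psmb6, Psmc6, Psmd12 and Psmd9), beside 10.2% of all 32851 promoters. The GC box was found in 22 of 42 (52.4%), beside 32.7% of all. With TMM factors, its holders Psmb6, Psmd2, Psmd5, Psmd6, Psmd11, Psmd12 and Psme4 did not pass as higher at 24 hours, and its other holders did. CCAAT was found in 33.3% of the members' promoters and in 33.8% of all, and CACGTG in 7.14% and 6.02%. A core of NF-kB sites, GGGA and CC spaced by 4 bases, was found in 23.8% and 17.6%, and a core of interferon-response sites, GAAA repeated after 2 bases, in 7.14% and 2.98%. These are matches of letters and say nothing of binding.

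After 12 hours with ASPN, proteasome mRNAs were close to their level at time 0. In edgeR's quasi-likelihood test, 0 of 45 tested members passed an adjusted p of 0.05 with at least a 1.5-fold change, beside 1.6% of all 11410 genes tested. DESeq2 called 0 members too, and 9 of 45 members (20%) had an unadjusted p under 0.05, beside 21.4% of all genes. By adjusted p alone, 5 of 45 members passed (11.1%), a share near the 10.3% of all genes, and each of the 5 was higher (6.85% of all genes were higher by this rule and 3.47% lower). The median log2 fold change was 0.015 over the members and -0.005 over all genes. The CPM of the time 0 and 12 hour libraries did not overlap for 11 members (24.4%, beside 27.1% of all genes).

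The 5 members that passed at 12 hours were the lid subunit Psmd8, both subunits of the PA28 activator of the core, Psme1 and Psme2, the chaperone of base assembly Psmd10, and the alpha subunit Psma6. Psmd8 lay at 319, 299 and 314 CPM at time 0 and at 363, 378 and 368 CPM at 12 hours. The groups did not overlap, and the log2 fold change was 0.25 ± 0.034 (SE, adjusted p = 6.0e-05 in edgeR's test). Psme2 rose from 94.7, 98.6 and 96.8 CPM to 119, 122 and 116 CPM, which gave 0.30 ± 0.034 on the log2 scale (SE, adjusted p = 7.2e-06). Psme1 rose from 101, 101 and 105 CPM to 115, 118 and 113 CPM, which gave 0.18 ± 0.033 (SE, adjusted p = 0.0012). Every 12 hour library lay above every library of time 0 for both PA28 subunits. Psmd10 had a log2 fold change of 0.17 ± 0.048 (adjusted p = 0.029) and Psma6 of 0.12 ± 0.035 (adjusted p = 0.040). Psma6 no longer passed in 5 of the 6 fits without 1 library, and Psmd10 in 3 of them (without time 0 replicate 2 and without 12 hour replicate 1 or 2). Both no longer passed with library totals or with the replicate number as a block. Nor did Psma6 pass with upper-quartile factors or in a fit of all 9 libraries. Without 12 hour replicate 1 or 2, 3 members passed in all. Psme2b (0.29 ± 0.097, adjusted p = 0.068) was among the 3 highest values but did not pass. The 3 lowest values of the 12 hour comparison were those of ATPase Psmc5 (-0.11 ± 0.036, adjusted p = 0.074), ATPase Psmc2 (-0.07 ± 0.033, adjusted p = 0.20) and chaperone Psmg1 (-0.07 ± 0.049, adjusted p = 0.45), none of which passed. Psmc5 passed as lower with library totals, with upper-quartile factors, with no filter on low genes and without time 0 replicate 2.

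**Figure D1:**
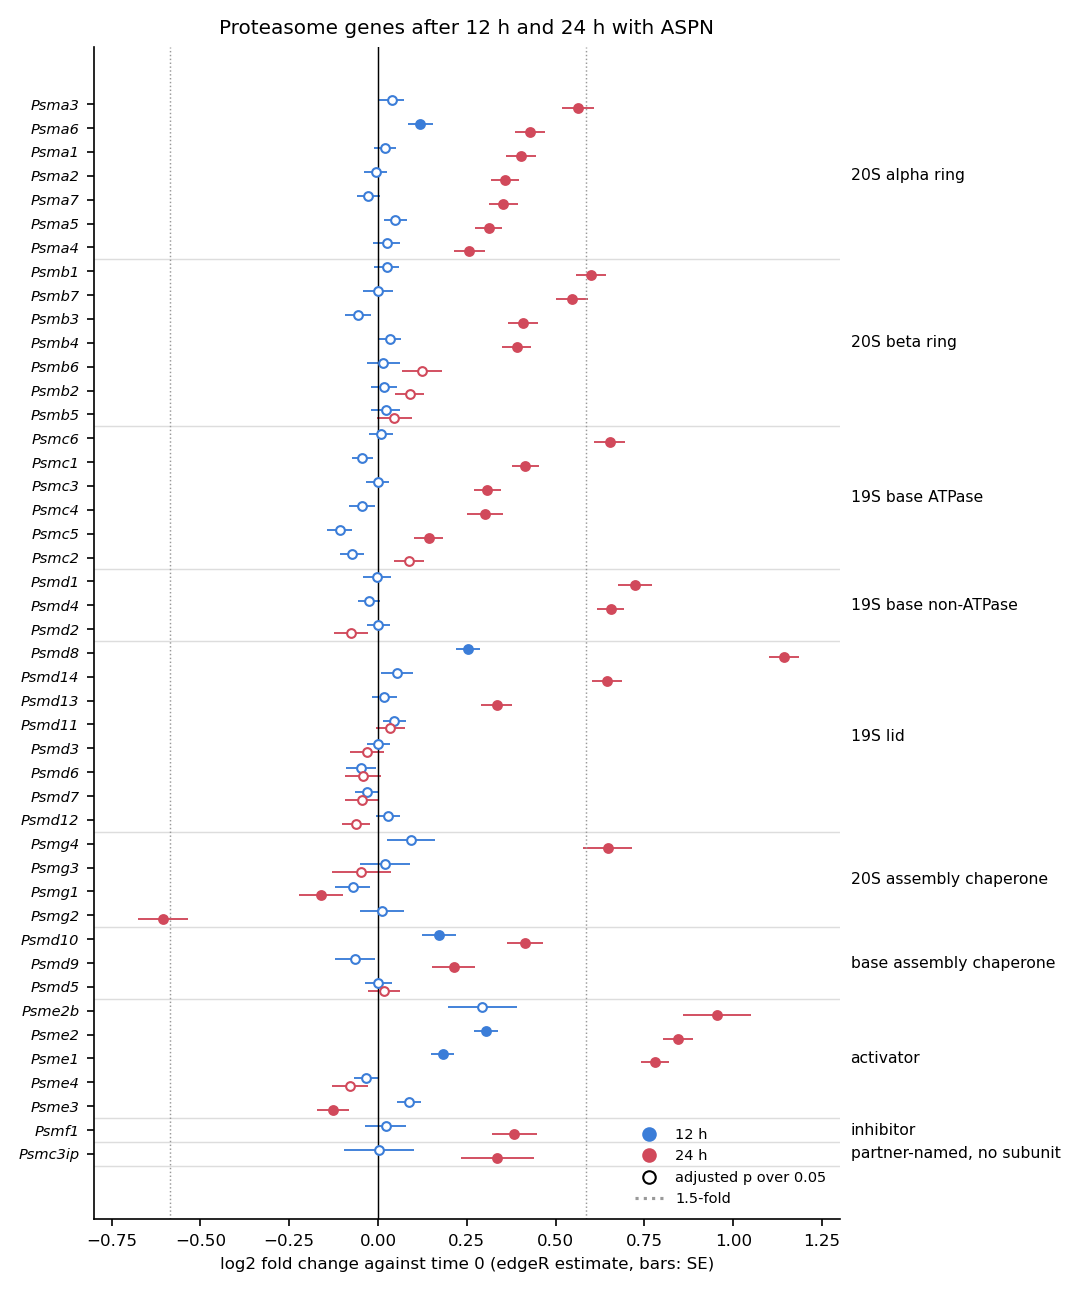
Log2 fold change against time 0 (horizontal axis, bars are SE) of the 45 tested members, grouped by role, after 12 hours (blue) and 24 hours (red); filled points passed an adjusted p of 0.05 and dotted lines mark 1.5-fold. The 12 hour points lie between -0.11 and 0.30, and the 24 hour points spread from -0.61 for Psmg2 to 1.14 for Psmd8.

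After 24 hours, most proteasome mRNAs were moderately higher than at time 0, and the rise was uneven within each part of the complex. The median log2 fold change was 0.33 over the 45 members and -0.02 over all 11444 genes tested. By adjusted p alone, 29 members were higher (64.4%, beside 34.4% of all genes) and 3 were lower (6.67%, beside 36.5% of all genes), so 71.1% of members passed in either direction, a share near the 70.9% of all genes. With the 1.5-fold limit, 10 members were called higher (22.2%, beside 12.0% of all genes) and Psmg2 was called lower (2.22%, beside 16.8%), and the total of 11 (24.4%) was below the 28.8% of all genes. The CPM of the groups did not overlap for 31 members that were higher (68.9%, beside 35.9% of all genes) and 4 that were lower (8.89%, beside 38.0%), in all 77.8% of members and 74.0% of all genes. The 10 called higher were Psmd8, Psme2b, Psme2, Psme1, Psmd1, Psmd4, Psmc6, Psmg4, Psmd14 and Psmb1. DESeq2 called 10 members higher and 1 lower.

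How far the members stood from 0 at 24 hours depended on the scaling, and their place relative to other genes changed with joint offsets for transcript length and GC content. With library totals in place of TMM factors the median of all genes moved to -0.24 and that of the members to 0.11, the difference between them stayed at 0.35, and 22 members passed as higher and 15 as lower (20.7% and 51.7% of all genes). Of the 29 members that were higher with TMM factors, 7 no longer passed with library totals (Psma4, Psma5, Psmc3, Psmc3ip, Psmc4, Psmc5 and Psmd9) and 3 with length and GC offsets (Psma4, Psmc3ip and Psmc5). The median principal transcript of the members was 1430 bases long, against 2981 bases over all genes tested, and when all genes were split by transcript length into 3 classes of equal size, the shortest class, which held 35 of the 45 members, had a median of 0.15 at 24 hours while the longest, with 2 members, had -0.19. The median of the 35 members was 0.34. With offsets for transcript length and GC content, the members' median was 0.15 and that of all genes -0.001, and 26 members passed as higher and 10 as lower (35.0% and 34.2% of all genes). Psmd8, Psmd1, Psme1, Psme2 and Psme2b were still called higher with these offsets and Psmg2 lower, whereas Psmd4, Psmc6, Psmg4, Psmd14 and Psmb1 fell below 1.5-fold, with log2 fold changes of 0.31 to 0.51. With library totals, Psmd8, Psme2 and Psme2b were called higher and Psmg2 lower.

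**Figure D2:**
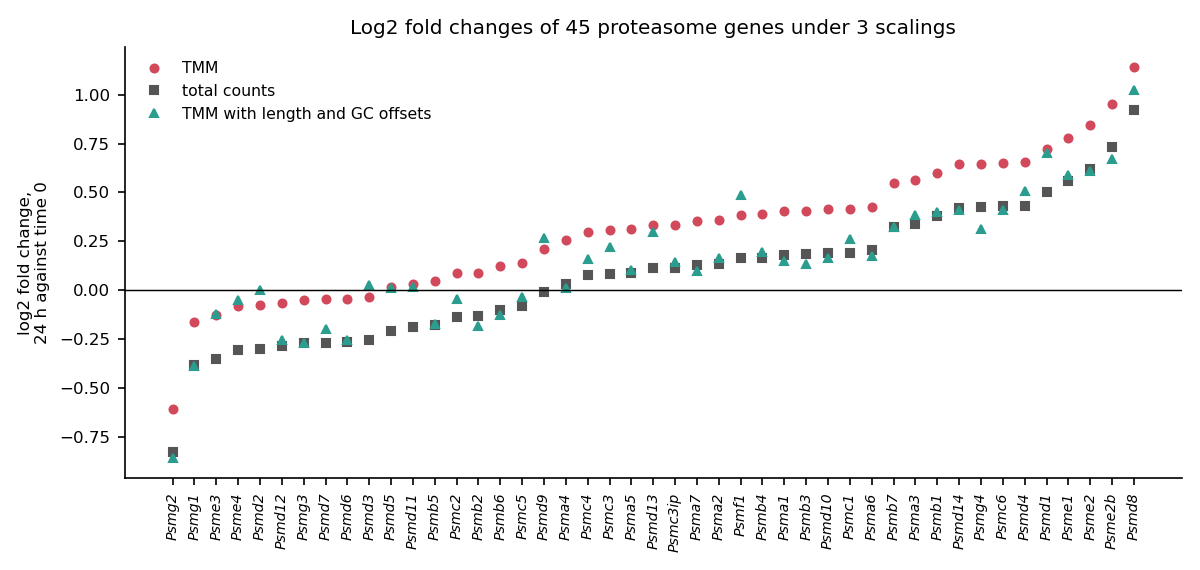
Log2 fold change of the 45 tested members at 24 hours against time 0 (vertical axis), ordered by the TMM value, with TMM factors (circles), library totals (squares) and TMM factors with length and GC offsets (triangles). Medians are 0.33, 0.11 and 0.15, and Psmd8 is highest and Psmg2 lowest under all 3.

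The alpha ring, which forms the gate of the core, had 7 of 7 genes that passed as higher, with log2 fold changes of 0.26 (Psma4) to 0.56 (Psma3). Psma3 lay at 115, 112 and 122 CPM at time 0, at 119, 121 and 117 CPM at 12 hours and at 178, 169 and 167 CPM at 24 hours, so only the last time stood apart. The other 5 alpha genes had log2 fold changes of 0.43 (Psma6), 0.40 (Psma1), 0.36 (Psma2), 0.35 (Psma7) and 0.31 (Psma5). Psma4 no longer passed with library totals (0.04, adjusted p = 0.51) or with the length and GC offsets (0.010, adjusted p = 0.83), Psma5 no longer passed with library totals (0.09, adjusted p = 0.053), and Psma7 no longer passed with the offsets and the replicate number as a block (0.10, adjusted p = 0.064), all in edgeR's test. All 7 values stayed above 0 under these scalings. The summed level of the 7 was 848 ± 9.6 CPM at time 0, 865 ± 16 CPM at 12 hours and 1107 ± 3.4 CPM at 24 hours (SD, n = 3).

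In the beta ring, 4 of 7 genes rose and the subunits of the active sites parted. Psmb1, a subunit without an active site, lay at 243, 229 and 227 CPM at time 0, at 239, 238 and 232 CPM at 12 hours and at 361, 341 and 356 CPM at 24 hours, and its log2 fold change at 24 hours was 0.60 ± 0.043 (SE, adjusted p = 3.7e-08). It was just past the 1.5-fold limit, and without 24 hour replicate 1 it fell below it. Psmb7, the subunit of the trypsin-like site, lay at 61.7, 63.3 and 65.9 CPM at time 0, at 63.7, 60.2 and 66.5 CPM at 12 hours and at 90.9, 91.4 and 96.5 CPM at 24 hours, with a log2 difference of 0.55 ± 0.045 (SE, adjusted p = 1.6e-07). The 24 hour libraries of both genes lay above all others.

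The other active subunits did not pass. Psmb5, of the chymotrypsin-like site, lay at 53.4, 53.4 and 57.8 CPM at time 0 and at 54.6, 57.7 and 57.6 CPM at 24 hours, with a log2 difference of 0.05 ± 0.050 (SE, adjusted p = 0.43), which was -0.18 with library totals and -0.17 with the length and GC offsets. Psmb6, of the caspase-like site, lay at 49.6, 51.6 and 51.6 CPM at time 0 and at 50.7, 58.0 and 57.6 CPM at 24 hours, with a log2 difference of 0.12 ± 0.056 (SE, adjusted p = 0.065), which was -0.10 with library totals and -0.13 with the offsets. The libraries of the 2 times overlapped for both genes, with the offsets both passed as lower, and with library totals Psmb5 did. With RLE (0.14) or upper-quartile factors (0.155) Psmb6 passed as higher. Within a library the ratio of Psmb7 to Psmb5 counts needs no library factor. It was 1.14 to 1.19, 1.06 to 1.19 and 1.59 to 1.68 at 0, 12 and 24 hours. A near-identical processed pseudogene covers 88.4% of the Psmb5 transcript, so reads of Psmb5 may have been split or lost in counting. Of the rest, Psmb3 (0.41) and Psmb4 (0.39) rose, and Psmb2 (0.09 ± 0.041, adjusted p = 0.072) did not pass with TMM factors, passed as lower with library totals (-0.13) and with the offsets (-0.18), and passed as higher with upper-quartile factors (0.12).

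**Figure D3:**
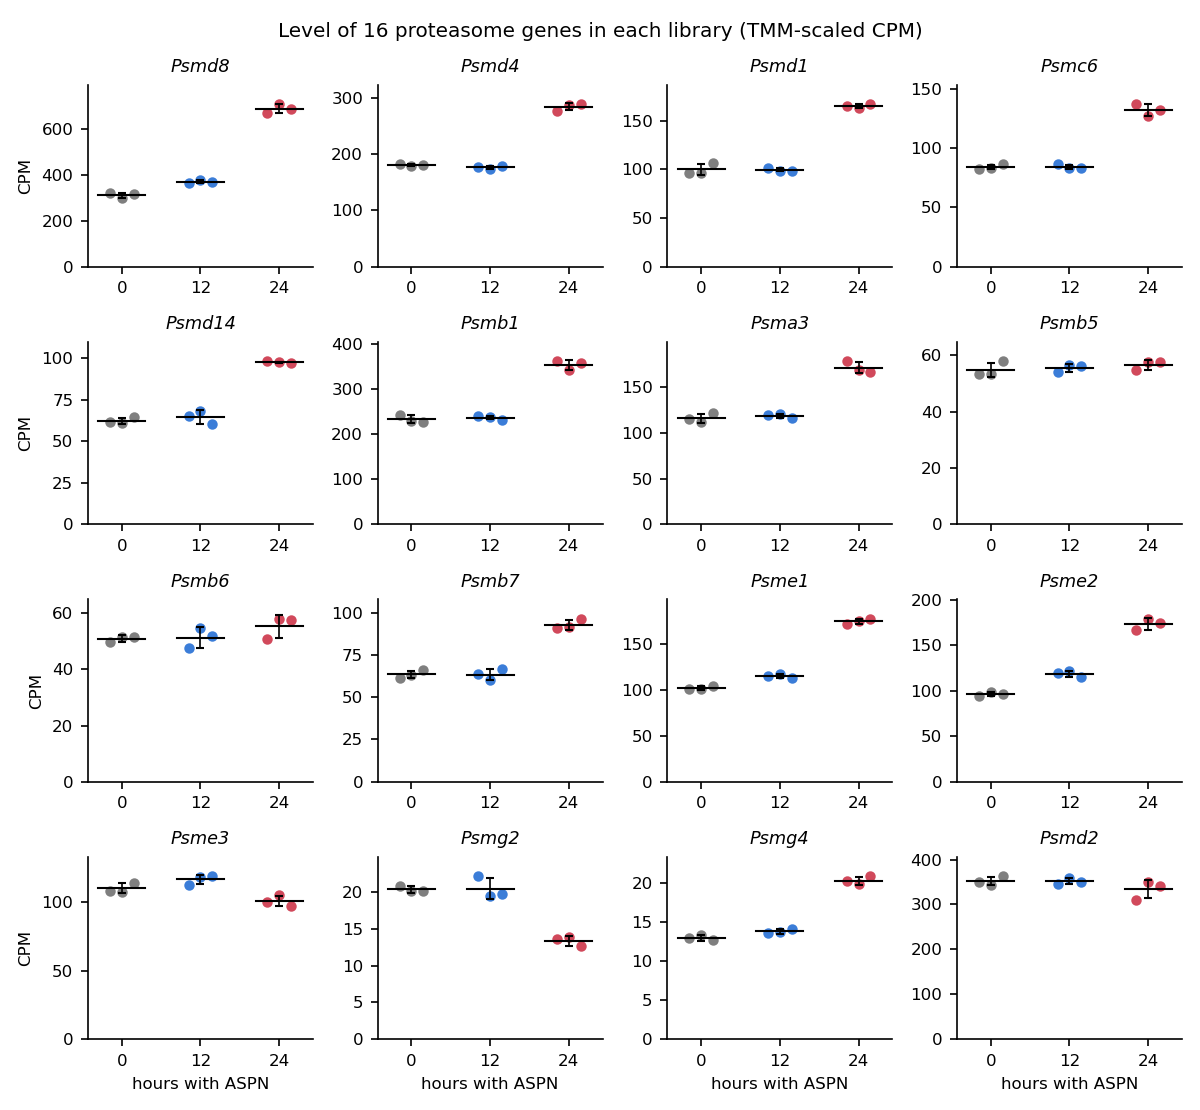
CPM (vertical axes, each starting at 0) of 16 members in each library at 0, 12 and 24 hours with ASPN; points are libraries, horizontal lines are means and bars are SD (n = 3). At 24 hours Psmd8 lies at 669 to 706 CPM, above 299 to 319 CPM at time 0, whereas Psmb5 and Psmd2 overlap between the times and Psmg2 lies below.

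Among the 6 ATPases of the 19S base, 5 rose at 24 hours. Psmc6 lay at 82.8, 83.3 and 86.2 CPM at time 0, at 86.3, 83.5 and 83.3 CPM at 12 hours and at 137, 127 and 132 CPM at 24 hours, and its log2 fold change at 24 hours was 0.65 ± 0.043 (SE, adjusted p = 1.8e-08). The 24 hour libraries stood apart and the first 2 times overlapped. Psmc1 (0.41), Psmc3 (0.31) and Psmc4 (0.30) passed too, but with library totals Psmc3 (0.09, adjusted p = 0.066 in edgeR's test) and Psmc4 (0.08, adjusted p = 0.20) no longer did. Psmc5 (0.14 ± 0.042, adjusted p = 0.0079 in edgeR's test) passed with TMM factors but was -0.08 with library totals and -0.03 with the offsets. Psmc2 (0.09 ± 0.041, adjusted p = 0.073) did not pass, but it passed as lower with library totals (-0.14) and as higher with RLE factors (0.10), with upper-quartile factors (0.12) and in a fit of all 9 libraries (0.09), and was -0.04 with the offsets. The summed level of the 6 was 679 ± 15 CPM at time 0, 658 ± 6.8 CPM at 12 hours and 850 ± 15 CPM at 24 hours.

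The base also holds Psmd1 and Psmd2, its large scaffold proteins, and Psmd4, a ubiquitin receptor. Psmd1 lay at 96.4, 96.6 and 107 CPM at time 0, at 101, 98.7 and 98.5 CPM at 12 hours and at 165, 163 and 167 CPM at 24 hours, and its log2 fold change at 24 hours was 0.72 ± 0.047 (SE, adjusted p = 1.4e-08). Psmd4 lay at 182, 178 and 181 CPM, at 177, 174 and 179 CPM and at 277, 286 and 289 CPM, and its log2 fold change was 0.65 ± 0.038 (SE, adjusted p = 6.1e-09). Both were flat at 12 hours and did not overlap with the earlier times at 24 hours. Psmd2 lay at 350, 344 and 363 CPM at time 0 and at 311, 351 and 341 CPM at 24 hours and did not pass. Its log2 difference was -0.08 ± 0.048 (SE, adjusted p = 0.18), and it was 0.002 with the length and GC offsets and passed as lower with library totals (-0.30). A near-identical processed pseudogene covers 98.2% of the Psmd2 transcript, so its reads may have been split or lost in counting.

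The lid split into 3 genes that rose and 5 that did not pass. Psmd8, a non-catalytic subunit of the lid, lay at 669, 706 and 684 CPM at 24 hours against 319, 299 and 314 CPM at time 0, and its value of 1.14 ± 0.043 on the log2 scale (SE, adjusted p = 1.6e-10) was the highest of all members in the 24 hour comparison. Psmd14, the deubiquitinase of the lid, lay at 61.7, 61.2 and 64.6 CPM at time 0, at 65.4, 68.3 and 60.3 CPM at 12 hours and at 98.2, 97.6 and 97.4 CPM at 24 hours, with a log2 difference of 0.64 ± 0.042 (SE, adjusted p = 1.6e-08). Psmd13 rose by 0.33 ± 0.043 (adjusted p = 1.1e-05).

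The lid genes Psmd11 (0.03), Psmd3 (-0.03), Psmd6 (-0.04), Psmd7 (-0.05) and Psmd12 (-0.06) had adjusted p-values of 0.19 to 0.57 in edgeR's test. The signs of these small values changed for Psmd11 with library totals (-0.19) and for Psmd3 with the offsets (0.03), and Psmd6 (-0.25), Psmd7 (-0.20) and Psmd12 (-0.25) passed as lower with the offsets. With library totals all 5 passed as lower, by -0.28 (Psmd12) to -0.19 (Psmd11). Psmd7 is the partner of Psmd14 in the lid, and the ratio of Psmd14 to Psmd7 counts within a library was 0.399 to 0.403, 0.398 to 0.443 and 0.614 to 0.684 at 0, 12 and 24 hours. The ratio of Psmd8 to Psmd3 counts was 1.5 to 1.61, then 1.77 to 1.89, then 3.38 to 3.63. Neither ratio depends on library factors, though the length and GC offsets, which differ by gene, would change it. In both ratios the 24 hour libraries lay above all earlier ones.

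Summed over the 8 genes, the lid was at 1117 ± 23 CPM at time 0, 1178 ± 18 CPM at 12 hours and 1536 ± 41 CPM at 24 hours (SD, n = 3). Psmd8 made up most of this gain, and the other 7 lid genes together were at 806 ± 19 CPM at time 0 and 850 ± 23 CPM at 24 hours, a ratio of 1.054, beside 1.375 with Psmd8. The median log2 fold change of the 8 lid genes at 24 hours was 0.001. The 19S particle as a whole went from 2428 ± 53 to 3169 ± 57 CPM between time 0 and 24 hours, a ratio of 1.305, and the 20S core from 1696 ± 19 to 2230 ± 4.6 CPM, a ratio of 1.315. As shares of all counts, which use no TMM factor, the 31 subunits made up 0.427% to 0.446%, 0.434% to 0.438% and 0.485% to 0.494% at 0, 12 and 24 hours. The range of levels per length within the 19S particle widened from 6.29-fold to 10.4-fold, with Psmd6 lowest (42.9) and Psmd8 highest (446) at 24 hours.

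**Figure D4:**
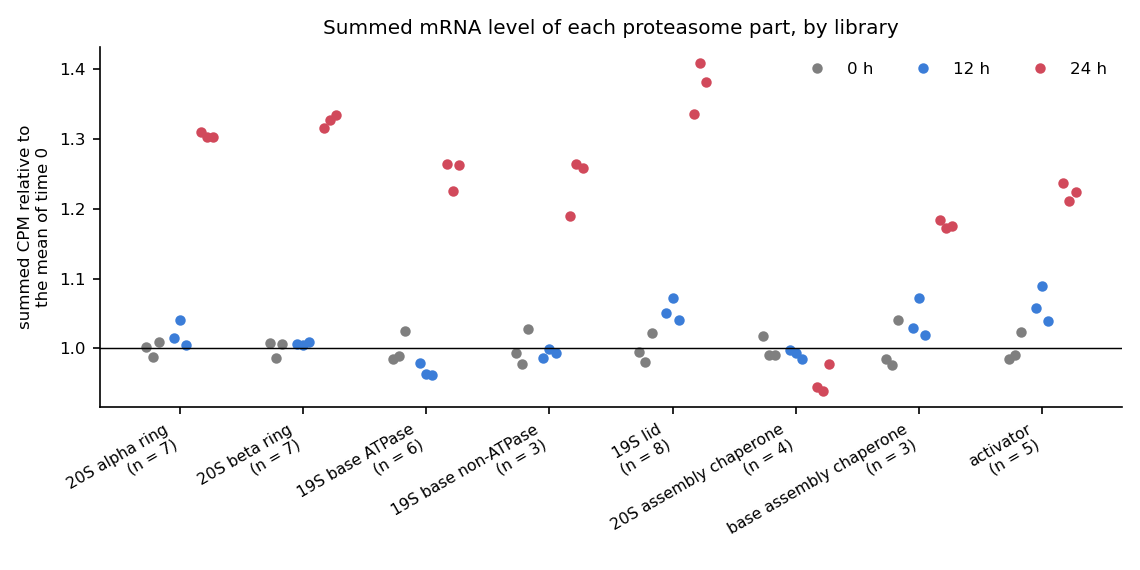
Summed CPM of each part of the proteasome relative to its mean at time 0 (vertical axis, not starting at 0), with 1 point per library at 0 hours (gray), 12 hours (blue) and 24 hours (red) and n the number of genes summed. The alpha and beta rings reach about 1.31 and 1.32 times the level of time 0 at 24 hours, the lid 1.38 times (1.054 times without Psmd8), and the chaperones of core assembly 0.954 times.

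The 4 chaperones that build the core parted, with Psmg1 and Psmg2 lower, Psmg4 higher and Psmg3 not past the test. Psmg1 and Psmg2 form a pair that assembles the alpha ring, and both were lower at 24 hours with TMM factors. Psmg2 lay at 20.9, 20.1 and 20.1 CPM at time 0, at 22.2, 19.5 and 19.8 CPM at 12 hours and at 13.7, 13.9 and 12.6 CPM at 24 hours, and its log2 fold change was -0.61 ± 0.070 (SE, adjusted p = 3.8e-06). It was the only member called lower, just past the 1.5-fold limit, and it fell short of that limit without time 0 replicate 1, without 24 hour replicate 3 or with upper-quartile factors. Psmg1 fell by 0.16 ± 0.063 on the log2 scale (adjusted p = 0.035), which did not pass in 4 of the 6 fits that left out a library: without time 0 replicate 1 or 3 and without 24 hour replicate 1 or 2. Nor did it pass with RLE or upper-quartile factors, with the replicate block or in DESeq2 (adjusted p = 0.052 to 0.076).

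The other pair of core chaperones is Psmg3 and Psmg4. Psmg4 lay at 12.9, 13.4 and 12.6 CPM at time 0, at 13.6, 13.7 and 14.2 CPM at 12 hours and at 20.2, 19.9 and 20.9 CPM at 24 hours, with a log2 difference of 0.65 ± 0.068 (SE, adjusted p = 1.6e-06). Psmg3 did not pass (-0.05 ± 0.083, adjusted p = 0.63 in edgeR's test), but it passed as lower with library totals (-0.27, adjusted p = 0.014) and with the length and GC offsets (-0.27, adjusted p = 0.0091). The ratio of Psmg4 to Psmg3 counts was 0.882 to 0.992 at time 0 and 1.40 to 1.60 at 24 hours, and that of Psmg2 to Psmg1 was 0.571 to 0.60 and 0.379 to 0.473. The ratio within each pair shifted without overlap between these times. It does not depend on library factors, though the length and GC offsets, which differ by gene, would change it. Among the chaperones of the 19S base, Psmd10 (0.41) and Psmd9 (0.21, -0.01 with library totals, where it did not pass) rose, and Psmd5 (0.02, adjusted p = 0.76) did not pass with TMM factors and passed as lower with library totals (-0.21). In Psmd9, 25.5% of the exon bases overlap an antisense gene, and strand use in counting is not stated.

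Among the activators, which open the core in place of the 19S particle, the PA28 alpha and beta subunits rose and the nuclear PA28 gamma fell. Psme1 lay at 101, 101 and 105 CPM at time 0, at 115, 118 and 113 CPM at 12 hours and at 172, 176 and 178 CPM at 24 hours, and its log2 fold change at 24 hours was 0.78 ± 0.040 (SE, adjusted p = 1.8e-09). Psme2 lay at 94.7, 98.6 and 96.8 CPM, then at 119, 122 and 116 CPM, then at 167, 179 and 175 CPM, with a log2 difference of 0.84 ± 0.042 (SE, adjusted p = 1.5e-09). The groups of all 3 times were separate for both genes, whose products form 1 ring, and the ratio of Psme1 to Psme2 counts stayed within 0.963 to 1.08 over the 9 libraries.

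Psme2b, a near copy of Psme2 that shares 95% or more of its bases over most of its length, rose at 24 hours, by 0.95 ± 0.095 on the log2 scale (SE, adjusted p = 9.3e-07). Its counts were 0.0534 to 0.0645 of those of Psme2 in all 9 libraries, and its change cannot be told apart from reads of Psme2. Psme3 (PA28 gamma) lay at 108, 108 and 114 CPM at time 0, at 113, 118 and 119 CPM at 12 hours and at 99.8, 105 and 97.5 CPM at 24 hours. It fell by 0.13 ± 0.045 on the log2 scale at 24 hours (adjusted p = 0.022), and this did not pass without time 0 replicate 1, without time 0 replicate 3, without 24 hour replicate 3 or with upper-quartile factors (-0.095, adjusted p = 0.067). Psme4 (PA200), which is known for its role in histone breakdown, did not pass (-0.08 ± 0.051, adjusted p = 0.17), but passed as lower with library totals (-0.30). The inhibitor Psmf1 rose by 0.38 ± 0.063 (adjusted p = 1.0e-04), and Psmc3ip rose by 0.34 ± 0.10 (adjusted p = 0.0095), which did not pass with library totals (0.11) or with the offsets (0.145).

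From 12 to 24 hours, 30 members rose (66.7%, beside 35.7% of all 11394 genes tested) and 2 fell (4.44%, beside 35.6%), in a comparison that shares its 24 hour libraries with the one above. With the 1.5-fold limit, 8 were called higher (17.8%, beside 10.4% of all genes) and 1 lower (2.22%, beside 15.3%), and the 9 together (20%) were below the 25.7% of all genes. By adjusted p alone, 71.1% of members and 71.3% of all genes passed in either direction. The highest were Psmd8 (0.91 ± 0.035, adjusted p = 1.6e-10), Psmd1 (0.75 ± 0.035, adjusted p = 6.6e-10) and Psmd4 (0.70 ± 0.034, adjusted p = 9.8e-10). Psme2b, Psmc6, Psme1, Psmd14 and Psmb1 were the other 5, between 0.60 and 0.68. The lowest were Psmg2 (-0.60 ± 0.072, adjusted p = 6.5e-06), which was called, Psme3 (-0.19 ± 0.041, adjusted p = 8.3e-04), which passed by adjusted p alone, and Psmd12 and Psmg1 (both -0.07), which did not pass. Psmg2 fell short of the 1.5-fold limit with upper-quartile factors (-0.572), without 12 hour replicate 1 (-0.537) and without 24 hour replicate 3 (-0.555). With library totals 23 members passed as higher and 14 as lower, and with the length and GC offsets 23 and 10. The number of members with a value above 0 was 37 with TMM factors, 29 with library totals and 32 with the offsets.

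The ratio of each immunoproteasome subunit to the constitutive subunit it replaces was higher at both later times than at time 0. These ratios are of levels per length within a library. Psmb8 was at 4.18%, 4.32% and 3.50% of Psmb5 at time 0, at 6.08%, 7.43% and 6.39% at 12 hours and at 12.6%, 12.5% and 11.7% at 24 hours. Psmb9 was at 1.23%, 0.980% and 0.943% of Psmb6 at time 0, at 1.44%, 1.97% and 1.90% at 12 hours and at 2.8%, 3.65% and 3.49% at 24 hours. Psmb10 was at 48.2%, 47.9% and 47.5% of Psmb7 at time 0, at 71.5%, 83.3% and 67.9% at 12 hours and at 58.9%, 72.6% and 63.8% at 24 hours. The first 2 ratios climbed over both intervals without overlap, whereas that of Psmb10 climbed in the first interval and overlapped between 12 and 24 hours.

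The mean ratio on the log scale at 24 hours was 3.07 times that at time 0 for Psmb8 to Psmb5, 3.15 times for Psmb9 to Psmb6 and 1.36 times for Psmb10 to Psmb7. In exact two-sided permutation tests with 3 libraries a time, p was 0.1 for 8 of the 9 comparisons, which is the smallest value this design allows, and 0.3 for Psmb10 to Psmb7 between 12 and 24 hours (adjusted over the 9 tests, 0.11 and 0.3). The immunoproteasome genes had log2 fold changes at 24 hours of 1.67 ± 0.097 (Psmb8), 1.79 ± 0.21 (Psmb9) and 0.99 ± 0.069 (Psmb10), with edgeR adjusted p-values of 5.6e-09, 4.5e-06 and 3.0e-08. Psmb8 had 195 to 200 counts per library at time 0 and 506 to 631 at 24 hours, and Psmb9 had 40 to 50 and 98 to 173, so the ratio of Psmb9 rests on few counts. Part of the exon bases of Psmb8 (14.7%), Psmb9 (5.8%) and Psmb7 (11.8%) overlap genes of the opposite strand. For Psmb5, 12.1% overlap a gene of the same strand. The near-identical pseudogene of Psmb5 covers 88.4% of its transcript, so the level of Psmb5 in these ratios may be too low.

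**Figure D5:**
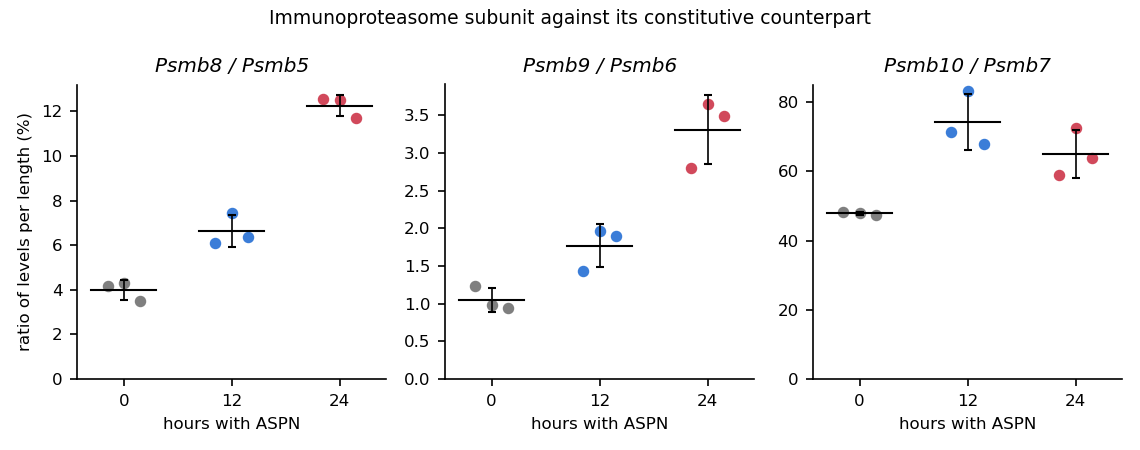
Level per length of Psmb8, Psmb9 and Psmb10 as a percent of that of Psmb5, Psmb6 and Psmb7 in the same library (vertical axes, each starting at 0) at 0, 12 and 24 hours; points are libraries, lines are means and bars are SD (n = 3). The means are 4.0%, 6.63% and 12.3% in the first panel, 1.05%, 1.77% and 3.31% in the second and 47.9%, 74.2% and 65.1% in the third.

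Other genes around the proteasome were read from lists written for this purpose. Of 9 tested genes whose products bind, mature or import the proteasome, 7 were higher and 2 lower at 24 hours by adjusted p (34.4% and 36.5% of all genes were higher and lower by this rule, here and for the lists that follow), with a median log2 fold change of 0.22. The deubiquitinase Uchl5 (0.60 ± 0.050, adjusted p = 1.7e-07) and the thioredoxin-like Txnl1 (0.60 ± 0.042, adjusted p = 3.0e-08) were called, and Pomp, the maturation factor of the core, rose by 0.29 ± 0.042 (adjusted p = 3.4e-05) but did not pass with library totals (0.065). Uchl5 and Txnl1 fell below 1.5-fold with library totals (both 0.38) and with the length and GC offsets (0.35 and 0.45). They also did when 1 library was left out, Uchl5 without 24 hour replicate 1 or 3 and Txnl1 without 24 hour replicate 2. With library totals 3 of the 9 were higher and 2 lower, and with the length and GC offsets 5 and 1 (median 0.13). The ubiquitin precursors Rps27a (0.95), which is fused to a ribosomal protein, and Ubb (0.63) were called higher, and Ubb fell below 1.5-fold with library totals (0.41) and with the offsets (0.50).

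Among 11 shuttle receptors and p97 genes, 6 were higher and 4 lower at 24 hours, with a median of 0.16 that was -0.06 with library totals. The receptor Rad23b (0.72 ± 0.039, adjusted p = 2.8e-09) and the p97 cofactor Nsfl1c (0.64 ± 0.046, adjusted p = 4.0e-08) were called higher, and the receptor Ubqln2 (-0.70 ± 0.043, adjusted p = 9.7e-09) was called lower. With library totals Rad23b (0.50) and Nsfl1c (0.41) fell below 1.5-fold, and Nsfl1c did with the length and GC offsets too (0.51). Vcp, which encodes p97, an ATPase that extracts proteins for degradation, fell by 0.29 ± 0.041 on the log2 scale (adjusted p = 3.4e-05).

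Of 9 genes made up of NRF1, NRF2 and their regulators, 0 were higher and 6 were lower at 24 hours by adjusted p, beside 34.4% and 36.5% of all genes, with a median of -0.40 (0 and 8 with library totals, 2 and 6 with the length and GC offsets). The ubiquitin ligase subunits Fbxw7 (-1.95 ± 0.051, adjusted p = 6.9e-12), Syvn1 (-1.09 ± 0.057, adjusted p = 2.3e-09) and Sel1l (-1.18 ± 0.060, adjusted p = 1.8e-09) were called lower. Nfe2l1 (NRF1) lay at 375, 364 and 366 CPM at time 0, at 453, 483 and 474 CPM at 12 hours and at 216, 265 and 260 CPM at 24 hours. Its log2 fold change was 0.36 at 12 hours (adjusted p = 8.3e-07) and -0.58 ± 0.064 at 24 hours (adjusted p = 2.7e-06), so its mRNA was highest at 12 hours, when the subunits were near their level of time 0, and lowest at 24 hours. With the length and GC offsets its value at 24 hours was -0.19. Ngly1, which is needed to process NRF1, fell by 0.40 ± 0.041 (adjusted p = 1.1e-06), and Ddi2, the protease that cleaves it, fell by 0.28 ± 0.048 (adjusted p = 1.5e-04) but was 0.005 with the length and GC offsets. Nfe2l2 (NRF2) did not pass (-0.06 ± 0.053, adjusted p = 0.35). These are mRNA levels, and NRF1 is known to be controlled mainly as a protein.

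Genes of 3 other multi-subunit complexes were read in the same comparison at 24 hours. In the COP9 signalosome, which is related to the lid, 6 of 10 genes were higher and 1 lower, with a median log2 fold change of 0.21 that was -0.007 with library totals. In eIF3, a translation initiation factor also related to the lid, 13 of 14 were higher and 0 lower, with a median of 0.75 (0.523 with library totals). In the CCT chaperonin 6 of 8 were higher and 1 lower, with a median of 0.52 (0.30 with library totals). Over all genes, 34.4% were higher and 36.5% lower. With TMM factors, the median of the proteasome members, 0.33, lay between those of these complexes, and no test of the difference was made.

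Across the 45 tested members, the log2 fold change at 24 hours had a Spearman rho of -0.17 with transcript length, -0.05 with GC content and 0.06 with the mean CPM at time 0, given as a description. A near-identical copy of at least 50% of the transcript exists for 9 members (Psma4, Psma5, Psmb3, Psmb5, Psmc1, Psmd11, Psmd2, Psme2 and Psme2b), whose counts may be split or lost, and 13 members share exon bases with another gene.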

How the data were processed

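Gene counts of 9 libraries (3 per time) were used as deposited. The authors prepared TruSeq mRNA libraries, sequenced paired-end reads, trimmed them with Cutadapt, aligned them with STAR to GRCm38.p6 (GENCODE M24) and used featureCounts for counting, so the deposited table holds raw counts, not normalized. Use of strand in counting is not stated. The members and gene lists were chosen with earlier results of these data known. For each comparison, low genes of the 6 libraries were dropped by filterByExpr, TMM factors were computed, and the quasi-likelihood test of edgeR 4.0.16 (R 4.3.3) was run over all genes, with Benjamini-Hochberg adjustment. Genes with an adjusted p of 0.05 or less and at least 1.5-fold change were called. SE was the log2 fold change divided by the square root of F.

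Named members were the 3 highest and 3 lowest of each comparison, every called member, the active subunits, ATPases, activators and inhibitor, the extremes of level per length and those not tested, and, outside the members, Nfe2l1, Nfe2l2, Pomp, Ddi2, Ngly1, Vcp, called genes of the lists and the immunoproteasome genes. The rest are named to complete a role. Lengths, overlaps and copies (95% identity over at least 150 bases) came from GENCODE M21 on the same assembly, in which all 47 members have the same coordinates as in the table. Alternatives were RLE and upper-quartile factors, library totals, no filter, a minimum of 10 counts per library, a fit of all 9 libraries, the replicate number as a block, length and GC offsets (loess, span 0.3), glmTreat (edgeR), DESeq2 1.42.0 and leaving out each library. The calculations were tested on simulated data. Some genes of the marker and ubiquitin lists are not reported here. Between replicates the counts differed beyond sampling noise (chi-square per degree of freedom 3.41 to 17.5), so each library was 1 replicate.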

Additional observations from a re-analysis of the deposited data

Results flagged for a closer look

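Nfe2l1, which encodes NRF1, moved in opposite directions in the 2 intervals. It was higher at 12 hours than at time 0 (log2 fold change 0.36, adjusted p = 8.3e-07 in edgeR's quasi-likelihood test) in 3 of 3 libraries, and from 12 to 24 hours its log2 fold change was -0.91 ± 0.062 (SE, adjusted p = 2.4e-08), with every 24 hour library below every earlier one. At 24 hours the value against time 0 ranged from -0.80 to -0.19 over the alternatives, and it kept its sign in each.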

How the results depend on the processing

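The counts of members called at 24 hours depended on the scaling. Against time 0, 11 members were called in the main analysis, 4 with total counts, 6 with length and GC offsets (6 with the block added) and 5 by glmTreat, and 10 to 13 without 1 library, 13 being without time 0 replicate 3. From 12 to 24 hours the 9 became 2, 3, 3 and 3, and 8 to 10 without 1 library. The median of the members at 24 hours, 0.334 in the main analysis, was 0.366 with upper-quartile factors, 0.112 with total counts, 0.152 with the offsets and 0.15 with offsets and block, and 0.318 to 0.365 without 1 library, the highest being without time 0 replicate 3. From 12 to 24 hours the median of 0.331 became 0.355, 0.108, 0.139 and 0.139, and 0.313 with all 9 libraries in 1 fit. The cause of these shifts was not tested beyond what the settings themselves change.

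With the replicate number as a block, 3 members passed at 12 hours by adjusted p in place of 5 (3 with offsets and block, and 3 to 5 without 1 library), and 11 and 9 were called at 24 hours. Same-numbered libraries showed no clear joint deviation (mean correlations of -0.012, -0.061 and 0.024), and 0, 0 and 3 of 6 libraries correlated best with their own number. The labels do not say whether same-numbered libraries shared more than a number, and these values cannot decide it. For the ratios of catalytic subunits, the test within replicate numbers gave p = 0.25, the smallest it can give (exact, 3 numbers).

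Signs of small values turned at 24 hours against time 0. With total counts they became -0.188 (Psmd11), -0.099 (Psmb6), -0.080 (Psmc5), -0.176 (Psmb5), -0.205 (Psmd5), -0.133 (Psmb2), -0.135 (Psmc2) and -0.010 (Psmd9). With length and GC offsets, then with the block added, they became 0.029 and 0.028 (Psmd3), -0.127 and -0.130 (Psmb6), -0.032 and -0.031 (Psmc5), -0.17 and -0.17 (Psmb5), -0.181 and -0.181 (Psmb2), -0.044 and -0.044 (Psmc2), 0.005 and 0.005 (Ddi2), and 0.002 for Psmd2 with offsets alone. Without 1 library they ranged over -0.076 to 0.014 (Psmd3), -0.058 to 0.016 (Psmd6) and -0.105 to 0.004 (Psmg3). From 12 to 24 hours, 8 members turned negative with total counts, 7 of which had not passed (Psmb2, Psmb5, Psmb6, Psmd5, Psmd6, Psmd7 and Psmd11, lowest -0.218), beside Psmc2 (-0.041). With the offsets 7 turned negative and 2 positive, and of those that had passed only Psma4 turned (-0.007, and -0.007 with the block).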
